A study of Mus musculus with 3 samples.

Results

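The genes of cytosolic ribosomal proteins were taken from the count table by symbol: those made of Rpl, Rps or Rplp with a number, together with Rpsa, and without the Rps6k kinases. The rule found 84 of the 21782 genes listed. Of these, 77 are the main genes of the ribosome, 46 for the large and 31 for the small subunit, and 7 are paralogs whose symbol ends in l or l1 (Rpl3l, Rpl7l1, Rpl10l, Rpl22l1, Rpl36al, Rpl39l and Rps27l). They were measured by RNA-seq of polyA-selected RNA in mouse embryonic fibroblasts (MEFs), primary cells grown out of embryos at embryonic day 12.5 and kept in medium with 20% serum. All 3 samples are WT and asynchronous, with no other allele, treatment or agent named, and each is 1 library from 1 of 3 clones, called clones 1, 2 and 3 here. The strain and sex are not given in the sources used here, and no source says that the clones came from separate embryos, so the spread between clones may be technical.

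Each cytosolic ribosome carries a single copy of nearly every one of these proteins, the acidic stalk proteins Rplp1 and Rplp2 being the known exception with more than 1 copy. Their mRNAs are short and abundant, and they are known to begin with a terminal oligopyrimidine (TOP) tract, a C followed by further C and T bases, through which mTOR and the RNA-binding protein Larp1 set their translation together. These genes have also left many processed pseudogenes, intronless copies made from their mRNAs, so that short reads of a ribosomal protein mRNA can match several places of the genome.

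The start sites of members are shown first because these mRNAs are known for the TOP tract. RefSeq promoter windows (GRCm38.p6, 250 bases before to 50 bases after an annotated start) were found for 64 of the 84 members, in 76 windows. A tract of at least 8 bases, C first and then only C or T on the sense strand, with its first base no more than 30 bases from the start, lay in 42 of the 76 windows (55.3%), against 19.1% of all 32851 windows. For single motifs searched on both strands of the whole window, CCGGAAG, the core that ETS factors bind, was in 35.5% of member windows and 8.86% of all windows. The Sp1 box GGGCGG was in 60.5% against 35.7%, ATGGCG, which the factor YY1 recognises, in 31.6% against 8.93%, and TATAAA in 9.21% against 13.6%. A tract and a motif may overlap, and windows of the same gene share bases. The following windows run from 30 bases before to 30 bases after the annotated start, 5′ to 3′ on the gene's strand, with the tract in capitals. Where a gene had more than 1 window, the one with the longest tract was taken. Rps18 (chr17:33955636-33955695, minus strand), Rps6 (chr4:86857338-86857397, minus) and Rpl15 (chr14:18270957-18271016, minus) show a tract at the start itself. Rps27 (chr3:90213619-90213678, minus) and Rpl34 (chr3:130730308-130730367, minus) are shown because their counts were among the lowest of the main genes, and Rps27l (chr9:66946056-66946115, plus) because it had far more counts than its parent.
Rps18: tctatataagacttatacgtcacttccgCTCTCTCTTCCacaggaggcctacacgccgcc
Rps6: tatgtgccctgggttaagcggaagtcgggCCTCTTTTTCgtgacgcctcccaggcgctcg
Rpl15: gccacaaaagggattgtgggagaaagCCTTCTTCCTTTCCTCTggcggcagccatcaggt
Rps27: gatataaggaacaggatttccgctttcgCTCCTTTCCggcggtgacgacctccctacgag
Rpl34: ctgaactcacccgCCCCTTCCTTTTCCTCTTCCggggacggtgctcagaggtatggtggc
Rps27l: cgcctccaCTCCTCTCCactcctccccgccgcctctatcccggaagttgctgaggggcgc
The tract began 2 bases before the start in Rps18 and in Rps27, and 1 base before it in Rps6. In Rpl34 the tract had 20 bases, began 17 bases before the start and ran across it, and in Rps27l it had 9 bases and began 22 bases before the start. In Rps27l another run of the same kind and length followed after 1 base, nearer the start. It is left in lower case because only the first of equal runs was marked. Rpl26, the main gene with the fewest counts, is not shown. Its tract had 12 bases and began at base 24, counting the start as base 1. A match describes these letters only.

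Total counts were 25261357, 22594316 and 24791198 in clones 1, 2 and 3, so that 1 count was 0.0396 to 0.0443 counts per 1000000 counts (CPM, after TMM scaling of the library sizes in edgeR). Markers of fibroblasts were present in every clone, with summed levels of 92918, 67717 and 70914 CPM over 10 genes, none of them at 0 in any clone. Clone 2 stood apart in the macrophage genes, of which 12 of 12 were highest there, with sums of 406, 1908 and 336 CPM and no marker under 97 counts. Proliferation genes were lowest in clone 1 and highest in clone 2 in 12 of 12, with sums of 616, 1242 and 1037 CPM, so that clone 1 was the farther from the other clones.

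The 84 members took 3.59 ± 0.159% of all counts (SD, n = 3 clones). Clone 1 had the lowest share, 3.42% with a 95% Wilson interval of 3.42 to 3.43%, clone 3 had 3.62% (3.61 to 3.63%), and clone 2 had the highest, 3.74% (3.73 to 3.75%). Wilson intervals take in the error of counting alone, as PCR copies of a molecule could not be set apart, and those of the clones did not overlap. The share was highest in clone 2, where the macrophage and proliferation markers were also highest, and the part of those cells in it was not tested. Large subunit genes took 2.09 ± 0.0895% and small subunit genes 1.48 ± 0.0676% of all counts, and the 7 paralogs together took 0.0315 ± 0.00158%. By comparison, the 76 genes of mitochondrial ribosomal proteins took 0.172 ± 0.00442%. In bulk RNA, a lower number of cells of a kind and less RNA per cell cannot be told apart.

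By abundance the members formed a dense group just under the most abundant mRNAs. None of the 50 genes with the highest mean CPM was a member, whereas 3 of the top 100, 14 of the top 200, 52 of the top 500 and 71 of the top 1000 were. Counts were spread over many genes: the 5 most counted main genes held 17.6% of the counts of all main genes, the top 10 held 28.2% and the top 20 held 45.9%. Of the 77 main genes, 73 lay between 133 CPM (Rpl37) and 1499 CPM (Rps2), and the remaining 4, Rpl26, Rpl30, Rpl34 and Rps27, were under 10 CPM. The plot of CPM by clone shows these 4 apart from an otherwise continuous series.

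**Figure D1:**
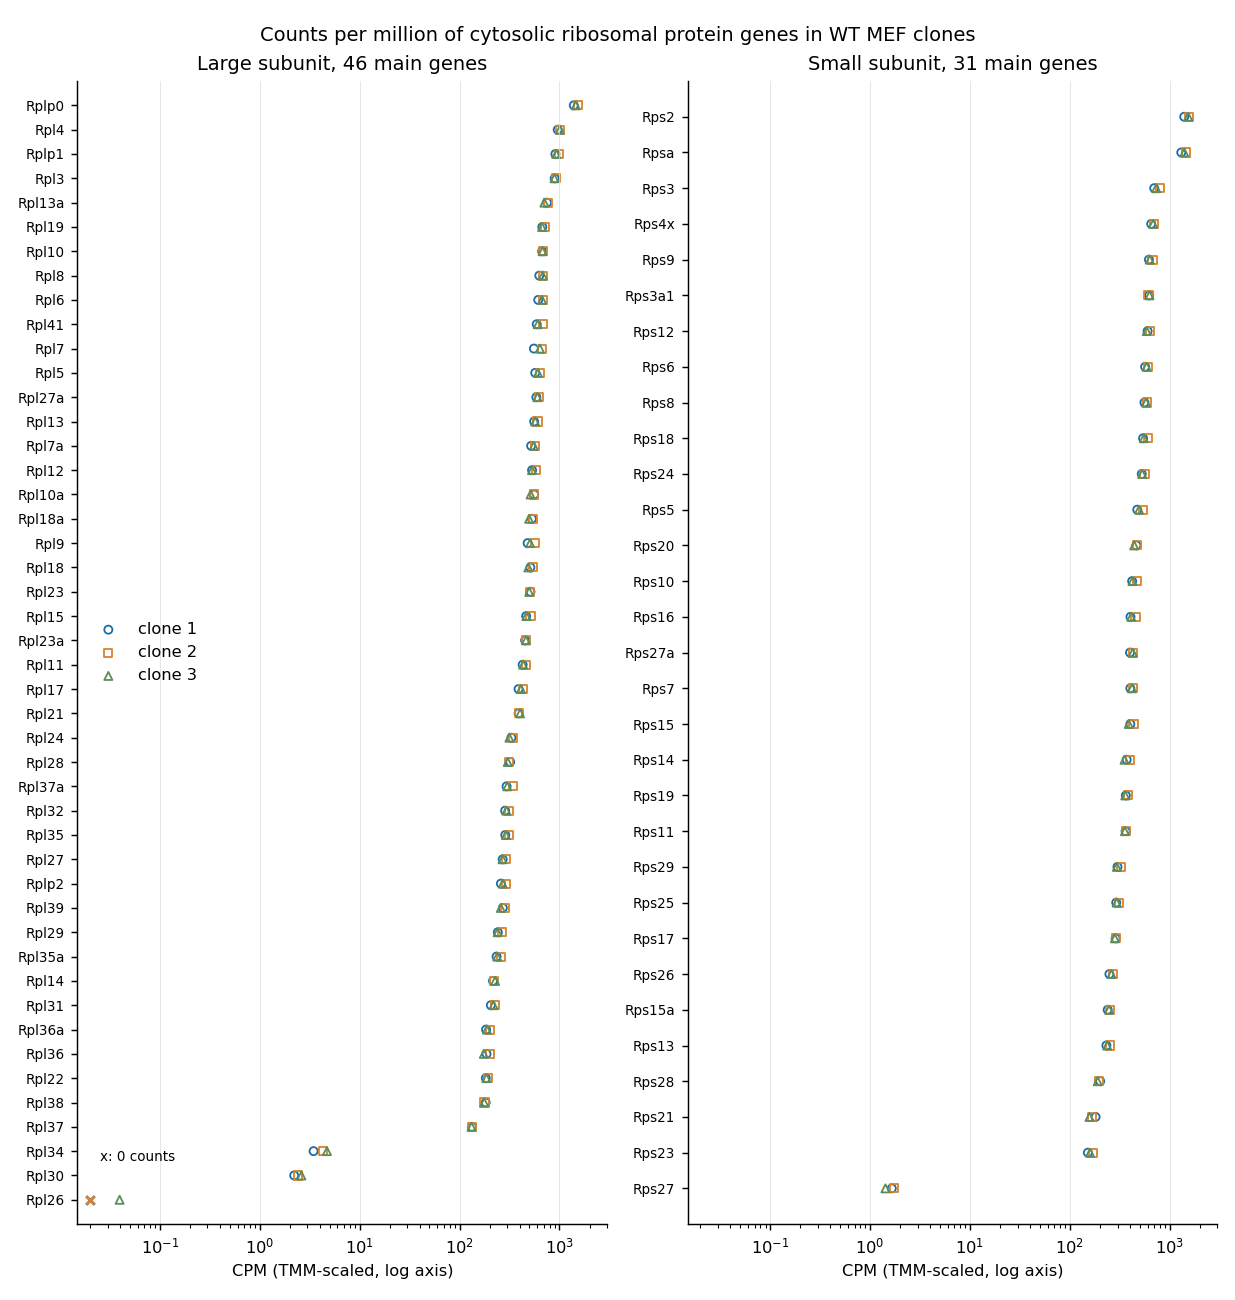
CPM (log axis) of the 46 large and 31 small subunit main genes in clones 1 (circles), 2 (squares) and 3 (triangles), ordered by their mean, with a cross where a clone had 0 counts. The 3 clones lie close together for nearly every gene, and Rpl26, Rpl30, Rpl34 and Rps27 lie far below the 73 others.

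Levels of different genes were compared per length, as CPM per kb, taking for each gene the GENCODE M21 transcript whose complete coding sequence is longest. The median of the 77 main genes was 476 CPM per kb, with 458 in the large and 530 in the small subunit, and 58 of the 77 lay within 2-fold of the median. The 90th percentile was 4.92 times the 10th. Some annotated transcripts have long untranslated ends, and per kb of the shortest principal transcript, a choice made after seeing the data, the ratio fell to 3.28 and 64 of 77 genes lay within 2-fold of the median of 534. The order is therefore given with both lengths where they differ.

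The highest level per kb was that of Rplp1, one of the acidic proteins of the stalk that recruits translation factors. Its counts were 22648, 22308 and 23433 in clones 1, 2 and 3, which over its 499-nt transcript gave 1827, 1983 and 1859 CPM per kb, or 1890 ± 82.2 (SD, n = 3). Rps2, which lines the path of the mRNA into the small subunit, followed with 34659, 35469 and 38643 counts and 1559 ± 96.5 CPM per kb. Every clone of Rplp1 was above every clone of Rps2. Rps12 of the small subunit head had 14900, 14330 and 14838 counts and 1321 ± 54.3 CPM per kb, and its clones were all below those of Rps2. Rpl41, which encodes a peptide so short that its coding sequence has 141 nt, had 14721, 15426 and 15328 counts and 1233 ± 96.8 CPM per kb. Rps12 and Rpl41 overlapped, at 1277 to 1382 and 1164 to 1344 CPM per kb, and their order was not larger than the spread between clones. Per kb of principal transcript Rpl41 was above Rps12, at 1437 against 1230.

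Rplp0, the base of the stalk that binds Rplp1 and Rplp2, had 34575, 34332 and 36802 counts and came next with 1073 ± 48.2 CPM per kb, below every clone of Rpl41. Rplp2, the partner of Rplp1 in the stalk, had 6450, 6588 and 6834 counts and 284 ± 17.2 CPM per kb. The counts of Rplp2 were thus below those of Rplp1 in every clone. On the 421-nt principal transcript Rplp2 reached 651 CPM per kb, still below the 1890 of Rplp1 although the proteins form a heterodimer. Rpsa, of the small subunit and also known as the laminin receptor precursor, had 32382, 32536 and 35301 counts, or 713 ± 36.7 CPM per kb of a 1938-nt transcript.

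A few members with known roles outside or at the edge of the ribosome were picked after their values were seen. Rpl5 and Rpl11, which bind Mdm2 as free proteins, had 605 ± 30.9 and 440 ± 16.6 CPM (SD, n = 3). Rps27a, made as a fusion with ubiquitin, had 419 ± 16.8 CPM. Rps6, the phosphorylation target of the S6 kinases, had 584 ± 16.9 CPM. All 4 were highest in clone 2, by a ratio of at most 1.11 between the highest and the lowest clone.

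The lowest main genes per kb were Rpl26, Rpl30, Rps27, Rpl34 and Rps15a. Rpl26, next to the exit of the peptide tunnel, had 0 counts in clones 1 and 2 and 1 count in clone 3. A count of 0 allows 0.121 CPM in clone 1 and 0.133 CPM in clone 2. Rpl30 had 55, 55 and 66 counts, or 2.73 ± 0.226 CPM per kb, and Rps27 had 41, 39 and 36 counts, or 4.64 ± 0.458 CPM per kb. Rpl34 had 86, 96 and 119 counts, or 6.64 ± 1.01 CPM per kb. The clones agreed within a ratio of 1.18 for Rpl30, 1.21 for Rps27 and 1.36 for Rpl34, and none of these 3 was called as differing between clones.

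Rps15a ranked low on its long annotated transcript. It had 5936, 5668 and 6231 counts, which over a transcript of 5179 nt gave 47.4 ± 1.21 CPM per kb and over the principal transcript of 640 nt gave 384 CPM per kb. It lies on chromosome 7 of GRCm38, from 118104372 to 118116188 on the minus strand. Its mean of 246 CPM was inside the range of the 73 main genes, unlike the other 4, whose levels stayed under 10 CPM per kb on the principal transcript too.

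The low genes were set beside how much of their sequence occurs in other genes, since the authors allowed reads up to 5 positions and 2 mismatches. Each transcript was divided into all its 86-nt stretches, the length of the reads. A stretch was counted as unique if no annotated gene elsewhere matched it within 2 mismatches on either strand. Matches to genes that overlap the member's own position were not counted, so a stretch shared only with such a gene still counts as unique. The median main gene had 50.1% unique stretches (63.5% with no mismatch allowed), the range was 1.54 to 100%, and 55 of 77 genes shared stretches with more than 5 other loci. Rps27 (chromosome 3, 90212522 to 90213651, minus strand) had the lowest share, 1.54%, since 98.5% of its stretches are identical in Rps27rt, a protein-coding gene on chromosome 9 (114982366 to 114982739) that was not analysed here. Rpl26 (chromosome 11, 68901583 to 68906989, plus strand) had 32.3% unique stretches, and the copy sharing the most of the others, the processed pseudogene Gm15772 on chromosome 5, had 0 counts in every clone. Rpl34 (chromosome 3, 130726831 to 130730398, minus strand) had 50.1%, and Rpl34-ps1 was also at 0 in every clone. Rpl30 (chromosome 15, 34440505 to 34443640, minus strand) had 67.2%, and 46.9% of its stretches overlap D730044K07Rik, a transcript annotated on the opposite strand. D730044K07Rik is not among the genes listed in the counts. On the principal transcript of Rpl30 the overlap with another gene was 23.7%.

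Some genes with few unique stretches had high counts. Within 2 mismatches, Rps18 had 2.53% unique stretches and 13424, 13718 and 13865 counts, and Rpl36 had 2.68% and 4627, 4537 and 4420 counts. With no mismatch allowed, their shares were 31.4% and 33.9%. That of Rps27 stayed at 1.54%, the only one under 10% among the 77 main genes on the transcripts used here. On its principal transcript Rpl10 was under 10% too, at 8.26% with no mismatch allowed, and it had 16661, 15503 and 17113 counts. Rpl7a, with stretches at 115 other loci, the most of any main gene, had 12941, 12900 and 13982 counts. Across the 77 main genes, Spearman's rho between the share of unique stretches and CPM per kb was -0.48 (-0.32 with no mismatch allowed), and across the 73 genes above 10 CPM it was -0.57 (-0.38). On principal transcripts rho was weaker, -0.38 (-0.21) across the 77 genes and -0.48 (-0.26) across the 73. Genes are not independent replicates, transcript length enters both measures, and no test was made.

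**Figure D2:**
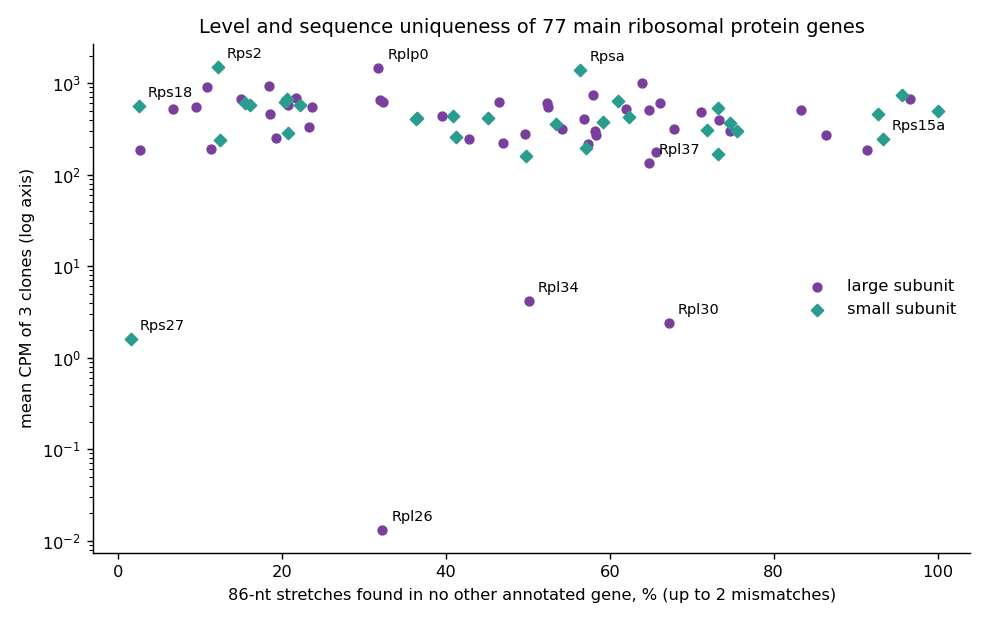
Mean CPM of 3 clones (log axis) of the 77 main genes against the share of their 86-nt stretches that are unique within 2 mismatches. Matches to genes overlapping the same position are not counted. Large subunit genes are circles and small subunit genes are diamonds. Rps27 and Rps18 both have under 3% unique stretches but differ in level. With no mismatch allowed (not plotted), Rps18 has 31.4% and Rps27 has 1.54%. Rpl26, Rpl34 and Rpl30 lie inside the range of unique shares, at 32.3, 50.1 and 67.2%.

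A pseudogene or another gene sharing at least 20% of a main gene's stretches was itself listed in the table for 13 of the 77 main genes. Rpl26, Rpl30 and Rpl34 were 3 of these 13. The other 10, among them Rps2 with Gm10653, Rpl14 with Rpl14-ps1 and Rps23 with Gm5148 and C330021F23Rik, lay between 160 and 1499 CPM. Of the 73 genes above 10 CPM, 63 had no such listed partner. The 6 entries with a pseudogene name (Rpl14-ps1, Rpl31-ps12, Rpl34-ps1, Rps15a-ps4, Rps15a-ps6 and Rps19-ps3) together held 164, 165 and 172 counts, against 864804, 844481 and 896921 counts on the members. The part of shared sequence in the 4 low genes was not tested, because the reads and the genome sequence were not used here.

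The main genes were compared with their 7 paralogs as the paralog's share of the counts of both. The parent held most counts in 6 of the 7 pairs, and Rps27l was the exception. In no pair did the paralog and its parent share an 86-nt stretch within 2 mismatches, so that a read from one would not match the other with the mismatches the authors allowed. The share depends on length, so it is also given per kb, on the transcripts used for levels above and on the shortest principal ones.

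Rpl36al and Rpl36a encode the same protein, with 106 of 106 residues identical over 87.9% identical bases. Rpl36al had 2508, 2417 and 2648 counts and Rpl36a had 4581, 4541 and 4741. Rpl36al therefore held 35.4%, 34.7% and 35.8% of the pair, or 35.3 ± 0.553% (SD, n = 3). Its annotated transcript of 1276 nt is longer than the 483 nt of Rpl36a, and per kb its share was 17.1%, against 33.4% per kb of the principal transcripts. Overlap with another gene covers 21.2% of the stretches of Rpl36al on this transcript and 56.7% on its principal transcript.

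Rpl22l1 had 779, 762 and 815 counts beside 4552, 4311 and 4692 of Rpl22, a protein that is known to be replaced by Rpl22l1 in part. Rpl22l1 held 14.6%, 15.02% and 14.8%, or 14.8 ± 0.204% (SD, n = 3), in clones 1, 2 and 3. With 73.8% identical residues the proteins are less alike than Rpl36a and Rpl36al. Per kb the share was 39.2% because the transcript taken for Rpl22 has 2051 nt, and it was 13.0% per kb of the principal transcripts.

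Rpl7l1, a relative of Rpl7 with 44.7% identical residues, had 1560, 1662 and 1783 counts. Its share with Rpl7 was 10.2%, 9.90% and 9.96%, or 10.01 ± 0.138% of counts (SD, n = 3), 4.73% per kb and 8.99% per kb of the principal transcripts. For Rpl7l1 and Rpl22l1 the Wilson intervals of all 3 clones overlapped, at 9.46 to 10.7% and 13.7 to 16.03%.

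Rps27l held 98.5%, 98.5% and 98.6% of the counts of its pair, with 2689, 2527 and 2546 counts against 41, 39 and 36 of Rps27. The mean was 98.5 ± 0.0679% of counts, 97.6% per kb and 97.9% per kb of the principal transcripts. The proteins share 81 of 84 residues and the coding sequences 194 of 255 bases. Rps27l (chromosome 9, 66946086 to 66949516, plus strand) had 92.7% unique stretches against 1.54% in Rps27, and the part of this in the share was not tested. At 107 ± 5.73 CPM, Rps27l itself lay below the 133 CPM of Rpl37, the lowest of the 73 main genes. The coding sequences of the pair are shown with the 61 bases that differ in capitals, to show how far they are spread.
Rps27l: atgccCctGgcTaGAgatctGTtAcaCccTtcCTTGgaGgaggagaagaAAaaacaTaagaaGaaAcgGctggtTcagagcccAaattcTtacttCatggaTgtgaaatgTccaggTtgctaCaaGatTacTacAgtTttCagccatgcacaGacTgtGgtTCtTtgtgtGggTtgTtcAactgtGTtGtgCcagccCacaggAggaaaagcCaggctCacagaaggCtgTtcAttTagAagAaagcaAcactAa
Rps27: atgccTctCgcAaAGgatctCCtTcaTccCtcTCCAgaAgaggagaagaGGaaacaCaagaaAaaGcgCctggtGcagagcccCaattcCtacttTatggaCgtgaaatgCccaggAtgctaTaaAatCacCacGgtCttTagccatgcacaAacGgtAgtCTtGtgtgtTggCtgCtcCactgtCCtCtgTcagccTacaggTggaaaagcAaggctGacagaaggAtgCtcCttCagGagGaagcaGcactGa
The longest identical run of the pair has 11 bases.

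Rpl39l stood out in its spread. Its counts were 30, 112 and 26 in clones 1, 2 and 3, or 1.21, 4.97 and 1.03 CPM, while Rpl39 had 6740, 6484 and 6539 counts. Rpl39l, which in mice is known for its role in the testis, thus held 1.70% of the pair in clone 2, with a 95% Wilson interval of 1.41 to 2.04%, but 0.443% (0.311 to 0.632%) in clone 1 and 0.396% (0.270 to 0.580%) in clone 3. The mean share was 0.846% of counts, 0.645% per kb and 0.940% per kb of the principal transcripts. Clone 2 was above both others by more than the counting error. The ratio of 4.83 between the highest and the lowest clone compares with ratios of 4.39 to 8.30 in the 12 macrophage markers, all highest in clone 2, and the part of macrophages in it was not tested. Rpl39l (chromosome 16, 10170226 to 10174911, plus strand) had 100% unique stretches. The proteins share 48 of 51 residues, and the coding sequences differ at 23 of 156 bases, here in capitals.
Rpl39l: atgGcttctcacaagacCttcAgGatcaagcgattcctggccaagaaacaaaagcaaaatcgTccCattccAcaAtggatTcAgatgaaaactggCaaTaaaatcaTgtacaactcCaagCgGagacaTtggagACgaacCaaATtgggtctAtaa
Rpl39: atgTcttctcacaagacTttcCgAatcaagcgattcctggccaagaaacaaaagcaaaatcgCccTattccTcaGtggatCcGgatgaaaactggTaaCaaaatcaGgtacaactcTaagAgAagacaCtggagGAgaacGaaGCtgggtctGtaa

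Rpl10l and Rpl3l were at or near 0. Rpl10l, an intronless copy of Rpl10 that is known from male germ cells, had 0 counts in every clone, which with the 16661, 15503 and 17113 counts of Rpl10 allows a share of up to 0.0180%, 0.0194% and 0.0175% (3 counts of the total). Rpl3l, known as the form of striated muscle, had 0, 1 and 0 counts against 22256, 20647 and 22535 of Rpl3. Rpl10l was not detectable at this depth, and 1 count of Rpl3l cannot be told from 0.

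**Figure D3:**
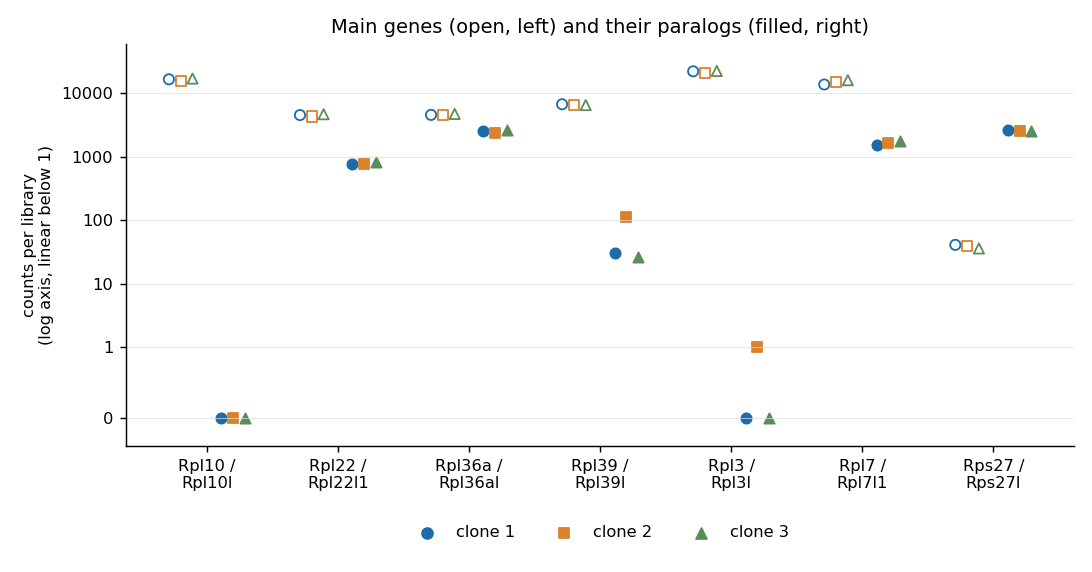
Counts per library (log axis, linear below 1) of the 7 main genes that have a paralog (open symbols, left of each pair) and of the paralogs (filled, right) in clones 1 to 3. Only Rps27l exceeds its parent, only Rpl39l differs widely between clones, and Rpl10l and Rpl3l lie at 0 or 1 counts.

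Between clones the ribosomal protein genes moved little and mostly together. For each of the 12218 genes that reached 10 counts in all clones, a Pearson chi-square test (2 degrees of freedom) asked whether its 3 counts followed the scaled library sizes, and a gene was called where the p-value, adjusted over these genes by the method of Benjamini and Hochberg, was below 0.05. The test sets libraries against each other, not conditions, and measures their differences against counting error only, taking each read as independent. It included 81 members, 76 of them main genes, and left out Rpl26, Rpl10l and Rpl3l. Of the 81 members, 65 were called (80.2%), against 62.5% of all genes tested. The median member had 10104 counts per clone, and at such depth the test calls small ratios: it called 1565 of the 1722 genes whose mean reached 100 CPM.

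The differences between clones were small in size. Of all genes tested, 18.6% were called with a ratio of at least 1.5 between the highest and the lowest clone, and of the 1722 genes that reached 100 CPM, 7.67% were. Among the members 1 was, Rpl39l, and among the 76 main genes none was, their highest ratio being 1.36 (Rpl34, not called) and their median 1.09, against a median of 1.24 over all genes tested and 1.16 over those that reached 100 CPM. The largest ratios among the called main genes were 1.21 for Rpl7, 1.18 for Rpl9, 1.16 for Rpl37a, 1.16 for Rpl41 and 1.15 for Rps21. Without clone 2, 38 of the 81 members were called (46.9%), close to the 45.3% of all genes tested then, and Rpl39l no longer passed. Without clone 1, 63% of the members were called against 31.7% of all genes tested, and without clone 3, 71.6% against 53%.

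Most of what difference there was had the same direction. The highest CPM was in clone 2 for 66 of the 76 main genes, against 35.2% of all genes tested. The lowest was in clone 1 for 48 (39.4% of all genes tested) and in clone 3 for 27 (25.8%). On the log2(CPM + 1) scale, the main genes deviated from the average of the clones by a median of -0.04, 0.06 and -0.02 in clones 1, 2 and 3, in that order. Over all genes tested the medians were -0.01, 0.00 and 0.01, and over the 1722 genes that reached 100 CPM they were -0.02, 0.02 and 0.00. Large and small subunit genes were alike in this, at 0.06 in clone 2 for both. The macrophage and proliferation markers named above were highest in clone 2 too, and their part was not tested.

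**Figure D4:**
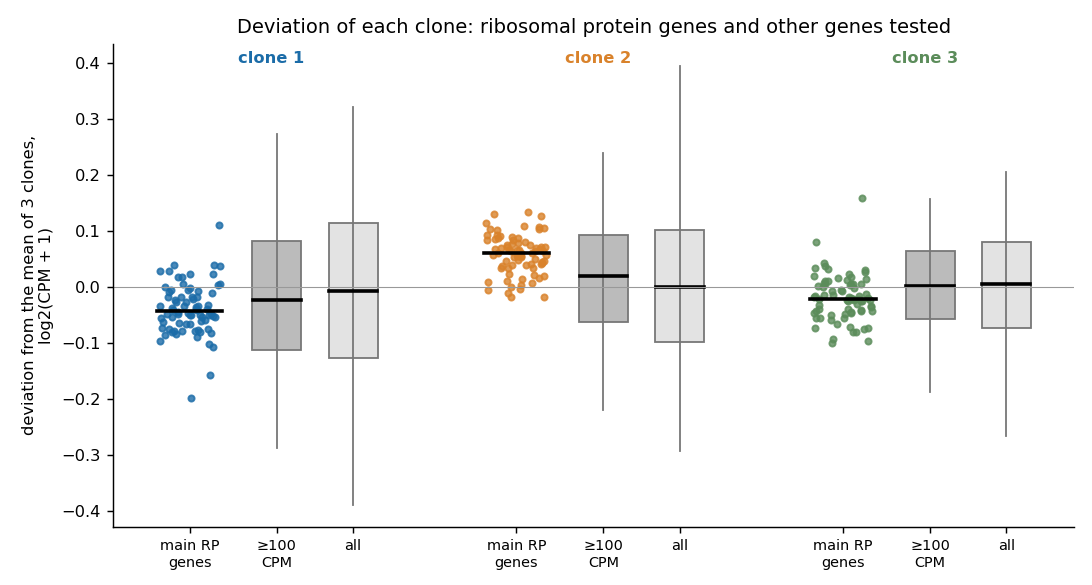
Each clone's log2(CPM + 1) minus the average over the 3 clones (vertical axis), for the 76 main genes tested (points, jittered sideways, with their median as a bar), for the 1722 genes of at least 100 CPM and for all 12218 genes tested (boxes from the 25th to the 75th percentile with the median, lines from the 5th to the 95th). The main genes lie mostly above 0 in clone 2 and mostly below it in clone 1, in a narrower band than the other genes.

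Single genes show the size of these differences. Rpl7, of the large subunit, was at 555, 671 and 638 CPM in clones 1, 2 and 3, and Rpl9 at 480, 566 and 509 CPM. Rpl37a was at 296, 343 and 301 CPM, and Rpl41 at 592, 684 and 607 CPM. In these 4 genes clone 2 was highest and clone 1 lowest. Rps21, of the small subunit, went otherwise, at 181, 165 and 157 CPM, with clone 1 highest.

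The steadiest main genes, by the tagwise spread that edgeR fitted, were Rpl3, Rpl10, Rps3a1, Rpl23 and Rpl23a, each with a biological coefficient of variation (BCV) of 0.104. Rpl3, near the peptidyl transferase centre, was at 896, 916 and 892 CPM. Rpl10, which joins the large subunit last, was at 671, 688 and 678 CPM. Rps3a1 was at 622, 612 and 626 CPM, Rpl23 at 513, 503 and 499 CPM and Rpl23a at 453, 466 and 462 CPM. In these genes the highest clone exceeded the lowest by a ratio of at most 1.03, and of the 5 only Rpl3 was called.

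The spread was small across the whole group. The median coefficient of variation of CPM over the 3 clones was 4.60% in the 76 main genes, where counting alone would give 0.98%. It was 7.97% in the 1722 genes of at least 100 CPM and 11.3% in all genes tested. A coefficient under 10% was found in 75 of the 76 main genes, in 62.4% of the genes of at least 100 CPM and in 44.1% of all genes tested. The median BCV was 0.108 in the main genes, 0.119 in genes of at least 100 CPM and 0.158 in all genes tested, and the fit draws the BCV of a gene towards that of genes with a like level.

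The main genes were also compared as shares of their own total, which removes by construction what they shared between clones. As a share of the counts of all main genes, a gene's highest clone exceeded its lowest by a median ratio of 1.05. The ratio was under 1.1 in 68 of 76 genes and under 1.2 in 75. Rpl34, with at most 119 counts, had the largest, 1.33. Some genes that were steady in CPM varied more as shares, with ratios of 1.09 for Rps3a1 and 1.05 for Rpl3.

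Related genes were counted in the same way. Fau, made as a fusion with a ubiquitin-like protein, and Gnb2l1 (Rack1), a scaffold on the small subunit, encode ribosomal proteins outside the symbol rule. Both were called and highest in clone 2, with 286 ± 11.9 and 1141 ± 40.6 CPM (SD, n = 3). Of 14 translation factors and other genes whose mRNAs are known to carry a TOP tract, 12 were called and none reached 1.5-fold. Calls were made for 62.5% of all genes tested and 90.9% of those that reached 100 CPM. The 14 had a median of 449 CPM. Their highest clone was clone 3 in 8 genes, against 27.2% of all genes tested, and clone 2 in 4, with median deviations of -0.04, 0.03 and 0.04 in clones 1, 2 and 3. Eef1a1, which brings aminoacyl-tRNA to the ribosome, had 132901, 127880 and 146768 counts and was highest in clone 3.

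Of 18 genes of ribosome biogenesis, 17 were called, against 62.5% of all genes tested. At their median of 2089 counts per clone, against 542 over all genes tested, the test calls smaller ratios. In clone 1, 17 of the 18 were lowest, against 39.4% of all genes tested. Their median deviations of -0.13, 0.09 and 0.06 were larger in clone 1 than those of the ribosomal protein genes. Dkc1, the pseudouridine synthase of small nucleolar particles, was the 1 gene past 1.5-fold, with 784, 1158 and 1138 counts. The nucleolar proteins Fbl and Ncl had ratios of 1.34 and 1.33 between clones. The proliferation genes were also lowest in clone 1, in 12 of 12, and their part was not tested.

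Of 12 genes that control the translation of TOP mRNAs, 9 were called, a share of 75% near the 62.5% of all genes tested, and Eif4ebp2, an inhibitor of cap-dependent initiation, was the 1 past 1.5-fold with 478, 642 and 800 counts. Mtor, Rptor and Tsc2 were not called, at 57.6 ± 2.80, 66.4 ± 0.516 and 88.7 ± 2.63 CPM. Larp1 had 221 ± 23.3 CPM and was called with a ratio of 1.23. Of 76 genes of mitochondrial ribosomal proteins, 24 were called (31.6%, against 62.5% of all genes tested) and none past 1.5-fold. Their median level was 21.01 CPM, against 431 CPM in the main cytosolic genes, and at that depth the test calls fewer genes of the same ratio. Their highest clone was clone 2 in 33 of 76 and clone 1 in 20, against 35.2% and 37.6% of all genes tested.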

How the data were processed

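RNA-seq libraries of polyA+ RNA from 3 WT MEF clones (1 library each) were analysed. The authors aligned 86-nt single-end reads with TopHat2 2.0.0 on Bowtie 0.12.7 (SAMtools version 0.1.16), and the values they deposited are raw counts per gene from HTSeq. The methods name mm10 and the submitters' processing notes name mm9. The version of HTSeq, the annotation and the strand setting are not given in the sources used here, so genes that overlap on opposite strands may share reads.

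CPM used TMM library sizes (edgeR 4.0.16, R 4.3.3). The BCV is edgeR's tagwise value with an intercept only. Transcripts, lengths and positions came from GENCODE M21 (GRCm38), and 86-nt stretches were compared with all annotated transcripts, without genome sequence. Alternatives used DESeq2 1.42.0 size factors, total counts, other minimum levels, other lengths and leaving out each clone. Python 3.11.15, numpy 2.4.6, pandas 2.3.3, scipy 1.17.1 and Biopython 1.88 were used.

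The members, gene lists and alternatives were chosen with earlier results of these data known. Named genes are all paralogs with their parents, the 5 highest and 5 lowest main genes per kb, the 5 called main genes with the largest ratio between clones, the 5 with the smallest BCV, Rpsa, Rplp0, Rplp1, Rplp2 and members under 10 counts. Further genes were named to illustrate a list or a shared sequence. A single further gene, in a related list, was left out and is not reported here.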

Additional observations from a re-analysis of the deposited data

How the results depend on the processing

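Of 92 alternative values, 75 stayed within a set limit. The limit was 1.5 times for counts of genes and the SD over members for the BCV. It was the SD between clones for shares of counts, deviations and levels. For shares of counts and levels, leaving out 1 of 3 clones cannot move the mean beyond that SD, so those values test nothing. The number of members called as differing, 65, was 38 to 58 when 1 clone was left out, lowest without clone 2, where 45.3% of all genes tested were called. Without clone 1 it was 51 (63%, against 31.7% of all genes tested) and without clone 3 it was 58 (71.6%, against 53%). The number at least 1.5-fold apart, 1, was 0 to 1 when 1 clone was left out (0 without clone 2), and 0 over genes of at least 100 CPM, where Rpl39l is not tested. Clone 2 was the highest for 65 main genes with DESeq2 size factors and for 58 with total counts, an alternative chosen after seeing the data. With total counts the median deviation of members in clone 3 was 0.01 in place of -0.02. The share of counts became 3.74% with Fau and Gnb2l1, chosen after seeing the data, and the longer list intended at first was not run. The paralog share, per kb of transcript and then per kb of the shortest principal transcript (chosen after seeing the data), was 39.2% and 13.0% for Rpl22l1, 17.1% and 33.4% for Rpl36al, 4.73% and 8.99% for Rpl7l1, and 97.6% and 97.9% for Rps27l. The median level of main genes, averaged over clones, was 476 CPM per kb and became 217 over all annotated exons, 543 over read start positions, 541 per kb of principal transcript and 256 over the 6 genes with at least 90% unique stretches. The median share of unique stretches, 50.1%, was 63.5% with no mismatch and 36.4% on principal transcripts. These moves follow from the lengths, genes or matches that each alternative uses. No paired analysis was possible because there is 1 group.

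Depth limits the near-zero genes: the count of 1 in Rpl26 and in Rpl3l cannot be told from 0, and the ratio of Rpl39l rests on 26 to 112 counts. The strain, the annotation used for counting and the treatment of reads with several positions are unknown here, so a count of a gene with copies is a count after those choices. With 1 library per clone, a clone, its culture and its library cannot be told apart.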
